A study of Mus musculus with 3 samples.

Results

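MHC class II macrophages of the infarcted mouse heart, cells that carry both complement C1q and abundant class II transcripts, were 1964 of 25762 CD45-selected cells (25640 with 200 or more genes). Members were chosen from measured transcripts. H2-Aa, H2-Ab1, H2-Eb1 and Cd74 together had to make up at least 1% of a cell's molecules, and C1qa, C1qb and C1qc together at least 0.1%. Members held no molecule of Flt3, Cd209a, Cd3e, Cd3d, Cd3g or Cd79a and at most 2 molecules of Top2a and Mki67 together. They were set against 7807 class II-low macrophages, which met the same limits but held below 0.3% class II. A second set, 1091 class II dendritic cells, met the class II limit but held below 0.1% C1q and at least 1 molecule of Flt3 or Cd209a. A further 973 cells lay between 0.3 and 1% and entered neither macrophage set.

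The cells came from mice of 2 genotypes, F7fl/fl CX3CR1Cre and F7fl/fl WT, so all carried the floxed allele of coagulation factor VII (F7). Cre recombinase is driven from the locus of the receptor Cx3cr1 in the CX3CR1Cre genotype. Hearts were taken at several times after permanent coronary ligation. Each biological replicate bore its own sample tag, and libraries 1, 2 and 3 pooled 7, 5 and 6 of these. Neither labels nor file headers used here state which genotype, time or age belongs to which tag. The name of library 1 contains d3, which none of them explains. No genotype or time was therefore set against another, and each fold change was tested between cells with the same tag. Library 1 differed from the others in bead type, pipeline release and the keeping of intronic reads, so library, processing and time cannot be told apart. Tags held 708 to 2494 cells, with 10152522 to 62344127 molecules and a median of 11399.5 to 20282 molecules per cell. Libraries 1 and 2 shared 4 cell barcode numbers, libraries 1 and 3 shared 3, libraries 2 and 3 shared 0, and tags of a library shared 0.

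MHC class II molecules present peptides from engulfed protein to CD4 T cells. Alpha and beta chains assemble on the invariant chain Cd74, lysosomal cathepsins cut that chain down, and the H2-DM dimer exchanges its remnant for peptide, under restraint by the H2-O dimer. The coactivator Ciita switches these genes on through a protein platform (RFX, CREB and NF-Y) on the X and Y boxes of their promoters. In mouse hearts, class II macrophages are known both with Ccr2, the receptor that brings monocytes into injured tissue, and without it.

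Promoter stretches of 4 genes are shown because the results below turn on this pathway: H2-Aa and H2-Eb1 encode chains of the rule, H2-DMb1 a chain of the peptide exchanger, and H2-Oa a chain of its inhibitor. All lie on chromosome 17. Each stretch runs from 141 to 22 bases before the RefSeq start (GRCm38.p6, gene strand, 5′ to 3′). Capitals mark the X box letters (AGNNAC followed directly by NGATG) and the Y box letters ATTGG, searched on both strands.
H2-Aa, chr17:34287845-34287964, minus strand: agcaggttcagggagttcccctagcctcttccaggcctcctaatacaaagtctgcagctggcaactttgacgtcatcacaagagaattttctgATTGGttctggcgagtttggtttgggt
H2-Eb1, chr17:34305726-34305845, plus strand: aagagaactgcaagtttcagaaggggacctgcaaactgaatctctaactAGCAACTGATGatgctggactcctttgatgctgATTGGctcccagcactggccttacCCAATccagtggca
H2-DMb1, chr17:34153050-34153169, plus strand: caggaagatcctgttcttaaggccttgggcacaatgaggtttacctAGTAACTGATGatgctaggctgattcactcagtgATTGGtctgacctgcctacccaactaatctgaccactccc
H2-Oa, chr17:34092238-34092357, plus strand: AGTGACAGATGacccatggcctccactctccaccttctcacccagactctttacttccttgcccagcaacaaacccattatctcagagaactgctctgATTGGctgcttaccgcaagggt
On the gene strand, Y box letters began 48 bases before the start in H2-Aa, 59 in H2-Eb1, 61 in H2-DMb1 and 43 in H2-Oa. X box letters began 92 bases before the start in H2-Eb1 and 95 in H2-DMb1, leaving 22 and 23 bases between the boxes, and 141 in H2-Oa, leaving 87. The X box letters are not in the H2-Aa window. Promoters of H2-DMa, H2-DMb2 and H2-Ob, not shown, held no X box letters in their 300 bases. Y box letters were found in H2-DMb2 and H2-Ob but not in every H2-DMa entry. Of 32851 RefSeq promoters of 300 bases, 0.968% held the X box letters, 37.4% the Y box letters, and 11 promoters (0.0335%) both on the same strand with 15 to 40 bases between them. H2-Ab1, Ciita and Ctsb had no entry, and Cd74 was left out of the search. A match of letters describes a promoter and shows no binding.

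The share of members varied widely between tags. The median tag held 9.36% of its cells as members (18 tags). The lowest, tag 10 of library 1, held 1.22% (27 of 2221 cells, 95% Clopper-Pearson interval 0.803 to 1.76%), and the highest, tag 5 of library 2, 20.2% (144 of 713, 17.3 to 23.3%). Medians were 4.81% (1.22 to 8.23) in library 1, 11.2% (9.47 to 20.2) in library 2 and 13.1% (7.17 to 15.7) in library 3. Library 1 lay below library 2 in every tag and overlapped library 3 only in its highest tag. Among cells at the macrophage limits, members made up a median of 21.5% (3.26 to 37.4). Intervals cover counting error only.

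**Figure D1:**
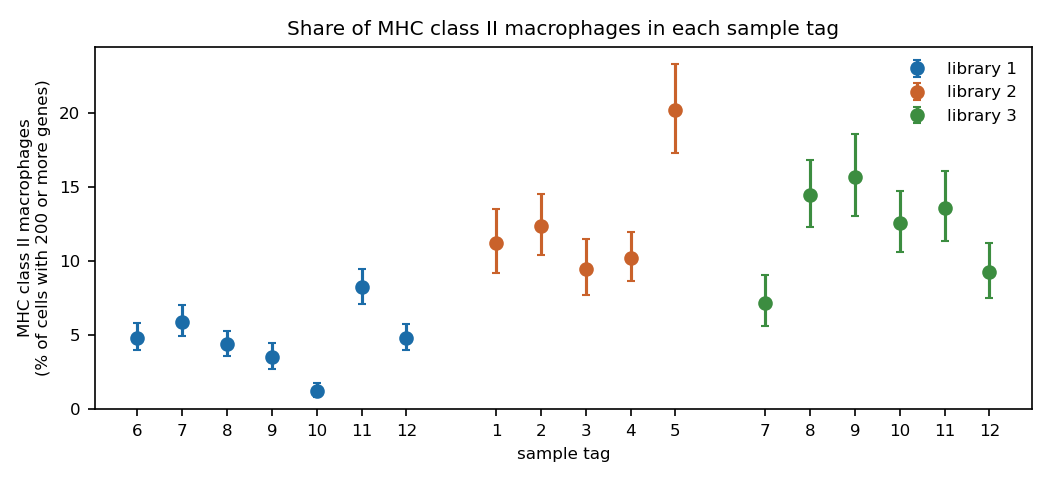
Percent of cells with 200 or more genes that were MHC class II macrophages in each of 18 sample tags, coloured by library, with exact Clopper-Pearson 95% intervals of the count. Tag 10 of library 1 is lowest at 1.22% and tag 5 of library 2 highest at 20.2%.

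The genes of the rule are given as a description, with no test. CPM here means molecules of a gene scaled to all molecules of a cell set in a tag. The alpha chain H2-Aa had a median of 8199 CPM (3565 to 9820.4) in members (lowest to highest of 18 tags), against 93.5 CPM (32.98 to 123) in class II-low macrophages. Its partner H2-Ab1 stood at 8869.7 CPM (4527 to 10011) in members and 122 CPM (54.2 to 167) in class II-low macrophages. H2-Eb1, the beta chain of the other class II dimer, stood at 5874 CPM (2774 to 7059.9) in members and 45.8 CPM (18.3 to 66.2) in class II-low macrophages. The sets were cut on these genes and did not overlap. Cd74 held 35.1% (33.1 to 41.9) of the 4-gene sum in members and 43.96% (39.1 to 58.2) in class II-low macrophages, while H2-Eb1 held 16.7% (14.8 to 17.4) in members and 9.86% (7.20 to 12.01) in class II-low macrophages. Of all members, 10% held a class II share of molecules below 1.25% and 10% one above 6.95%, and tag medians ran from 1.57 to 4.65%. C1qa, part of the C1q limit that both macrophage sets met, stood at 1778 CPM (943 to 2037) in members and 1681 CPM (945 to 2305) in class II-low macrophages, and these ranges overlapped.

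The limit of 1% fell within a continuum. The 81 members at 1.0 to below 1.1% held 21.9 CPM Ciita and 169 CPM H2-DMa, and the 86 cells just outside, at 0.9 to below 1.0%, held 27.1 CPM Ciita and 137 CPM H2-DMa. The label was checked on Cx3cr1, a marker given for these cells that the rule did not use, and on 12 macrophage markers. A Cx3cr1 molecule was found in 77.3% of members and 47.2% of class II-low macrophages, at medians of 12481.5 and 20258 molecules per cell. With every cell thinned to 2000 molecules the shares were 43.6% (41.4 to 45.9) in members, 21.4% (20.5 to 22.4) in class II-low macrophages and 2.33% (1.17 to 4.12) in cells with 2 or more CD3 molecules, which should hold little of it. The summed macrophage markers stood at a median of 25126 CPM (13248 to 33479) in members, 32021 CPM (19024 to 46321) in class II-low macrophages and 3339 CPM (2126 to 4386) in class II dendritic cells. Cx3cr1 did not go against the label. Of the 12 markers, 4 were called higher and 6 lower in members than in class II-low macrophages by the edgeR test described below. Members and dendritic cells were split on C1q, Flt3 and Cd209a, so their gap in summed markers is no independent check.

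Beyond the rule genes, members differed from class II-low macrophages over much of the transcriptome. Of 9795 genes tested with edgeR's quasi-likelihood test on molecule counts summed per tag and set (18 tags, tag as a block), 2609 were higher in members at an adjusted p under 0.05 (26.6%) and 2475 lower (25.3%). With 51.9% of all genes called, a called gene by itself says little, and sizes are given with each. Each count from a gene list in this comparison is to be read beside these shares of 26.6% higher and 25.3% lower. Members held fewer molecules per cell, as given above. With every cell thinned to 2000 molecules, 1072 genes were higher and 953 lower of 5211 tested. The part of depth in single differences was not tested beyond this.

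Ciita, the master switch of class II genes (chromosome 16, 10480059 to 10528418 of GRCm38), had the largest increase among the 10 named for size. Its median was 76.6 CPM (56.5 to 120.5) in members, against 1.804 CPM (0.237 to 5.33) in class II-low macrophages. Every tag of members lay above every tag of class II-low macrophages. The log2 difference was 5.25 ± 0.12 (SE, edgeR adjusted p = 1.1e-21), with 5.25, 5.21 and 5.22 in libraries 1, 2 and 3 fitted alone. Of 18 class II machinery genes tested, 10 were higher, 4 lower and 4 not called. Over all genes 26.6% were higher and 25.3% lower, so the count of lower genes is near that share. The median log2 difference was 0.22 over the list and 0.0018 over all genes. Changes were uneven along the pathway.

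The peptide exchanger rose with Ciita. H2-DMa stood at 376 CPM (259 to 464) in members, against 43.3 CPM (32.9 to 61.2) in class II-low macrophages, a log2 difference of 3.03 ± 0.054 (edgeR adjusted p = 8.5e-24). Its partner H2-DMb1 stood at 227 CPM (136 to 272) in members and 20.1 CPM (15.4 to 25.5) in class II-low macrophages, a log2 difference of 3.45 ± 0.053 (edgeR adjusted p = 3.6e-25). The sets overlapped for neither gene. The close copy H2-DMb2 stood at 10.8 CPM (1.97 to 19.1) in members and 2.37 CPM (1.07 to 4.71) in class II-low macrophages, higher in 17 of 18 tags (log2 2.19 ± 0.19, edgeR adjusted p = 5.2e-10). No source used here says how reads common to both H2-DMb copies were counted, so their split is uncertain. The inhibitor chains were too low to be tested. H2-Oa stood at 2.85 CPM (0 to 6.09) in members and 0.292 CPM (0 to 0.693) in class II-low macrophages. H2-Ob stood at 6.42 CPM (0 to 16.7) in members and 1.25 CPM (0.254 to 3.14) in class II-low macrophages.

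The platform under Ciita and the proteases moved less or the other way. Rfxap, an RFX subunit, rose by a log2 difference of 0.36 ± 0.09 (edgeR adjusted p = 0.0016; 0.063 with no filter on low counts). Creb1, a CREB factor, rose by 0.35 ± 0.056 (adjusted p = 8.2e-06). Rfx5 rose by 0.51 ± 0.14 (adjusted p = 0.0037), but without library 3 its value was 0.31 with an adjusted p of 0.17. Nfya of NF-Y rose by 0.17 ± 0.051 (adjusted p = 0.0082; 0.053 without library 2 and 0.11 without library 3), while Nfyb (0.11 ± 0.087), Nfyc (0.09 ± 0.051) and Rfxank (0.16 ± 0.18) did not pass. Cathepsin S, a main protease of the invariant chain, stood at 6276 CPM (5116 to 8125) in members and 5990.2 CPM (4311 to 10019) in class II-low macrophages, higher in 9 of 18 tags (log2 0.04 ± 0.045, edgeR adjusted p = 0.49). Cathepsin L (Ctsl) fell to 397 CPM (308 to 512) in members, against 1839 CPM (846 to 2416) in class II-low macrophages, with no overlap (log2 -2.11 ± 0.07, edgeR adjusted p = 7.2e-18). Cathepsin B (Ctsb) fell as well (log2 -0.84 ± 0.077, adjusted p = 1.2e-09), and Ctsh rose (0.31 ± 0.042, adjusted p = 8.2e-07; 0.077 without the tag block). The protease legumain (Lgmn) differed by -0.203 ± 0.045 (adjusted p = 0.00046; 0.058 without library 1). Of the ubiquitin ligases that remove class II from the surface, March1 rose (0.28 ± 0.063, adjusted p = 0.00052) and March8 fell (-0.68 ± 0.1, adjusted p = 3.0e-06). The list gene Ifi30 was not analysed here.

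**Figure D2:**
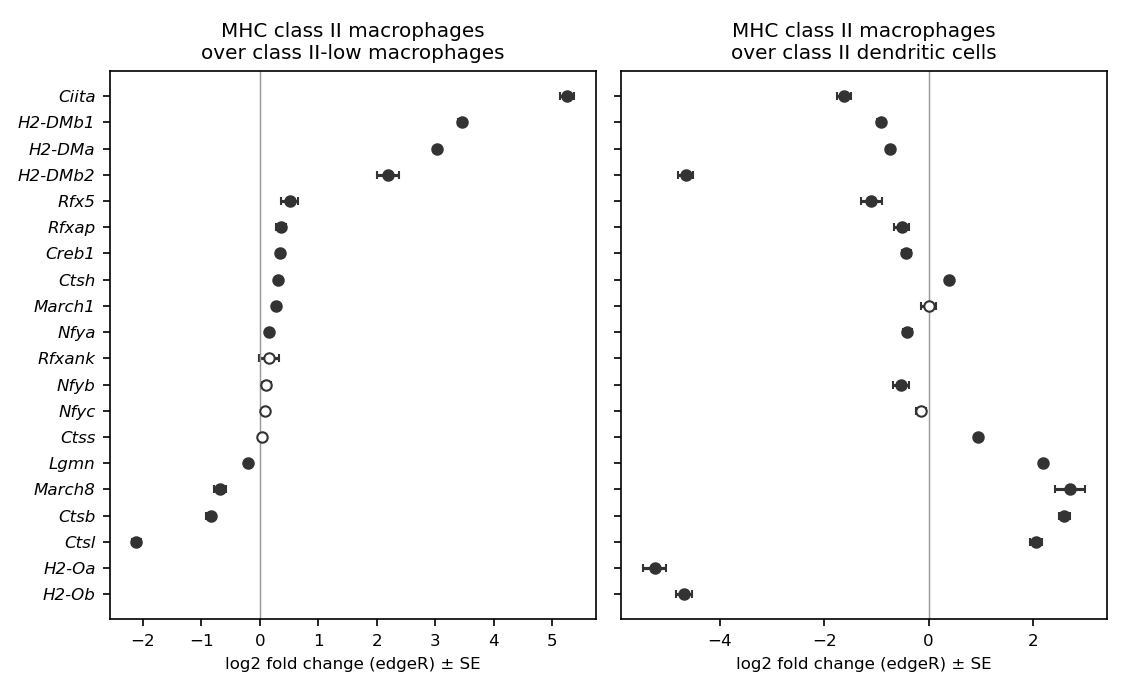
Log2 fold change with its SE (edgeR) for genes of the class II machinery, in MHC class II macrophages over class II-low macrophages (left, 18 tags) and over class II dendritic cells (right, 15 tags); filled points had an adjusted p under 0.05. Ciita and the H2-DM genes lie right of 0 on the left and left of 0 on the right, while Ctsl lies at -2.11 on the left and 2.05 on the right.

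The chemokine receptors Cx3cr1 and Ccr2, Itgax and Axl were higher in members. Cx3cr1, the fractalkine receptor, stood at 357 CPM (123 to 655) in members, against 140.2 CPM (64.2 to 420.2) in class II-low macrophages. Ranges overlapped between tags, yet members were higher within 18 of 18 tags (log2 1.23 ± 0.099, edgeR adjusted p = 1.3e-10). Ccr2 stood at 1133 CPM (851 to 1783) in members and 199 CPM (118 to 596) in class II-low macrophages (log2 2.202 ± 0.11, edgeR adjusted p = 4.2e-14, and 1.65, 2.36 and 2.72 in libraries 1, 2 and 3 alone). Itgax, the integrin chain CD11c, stood at 262 CPM (142 to 341) in members and 52.01 CPM (20.4 to 80.3) in class II-low macrophages (log2 2.398 ± 0.12, edgeR adjusted p = 2.5e-14). Axl, a receptor for dying cells, stood at 351 CPM (144 to 489.95) in members and 82.3 CPM (24.5 to 106) in class II-low macrophages (log2 2.301 ± 0.064, edgeR adjusted p = 1.4e-19). Ranges did not overlap for Ccr2, Itgax and Axl, nor for Plbd1, a phospholipase-like enzyme, at 429 CPM (301 to 558) in members and 47.2 CPM (32.6 to 123) in class II-low macrophages (log2 2.91 ± 0.096). Class II dendritic cells held still more Plbd1 (1320 CPM, 1017 to 1650) and Itgax (514 CPM, 428 to 672). They held less Ccr2 (807 CPM, 472 to 1286) and Axl (71.1 CPM, 29.3 to 193) than members. Tmem176a (2.44 ± 0.069), Tmem176b (2.19 ± 0.075) and the lectin Mgl2 (2.79 ± 0.17) completed the 10 largest increases.

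**Figure D3:**
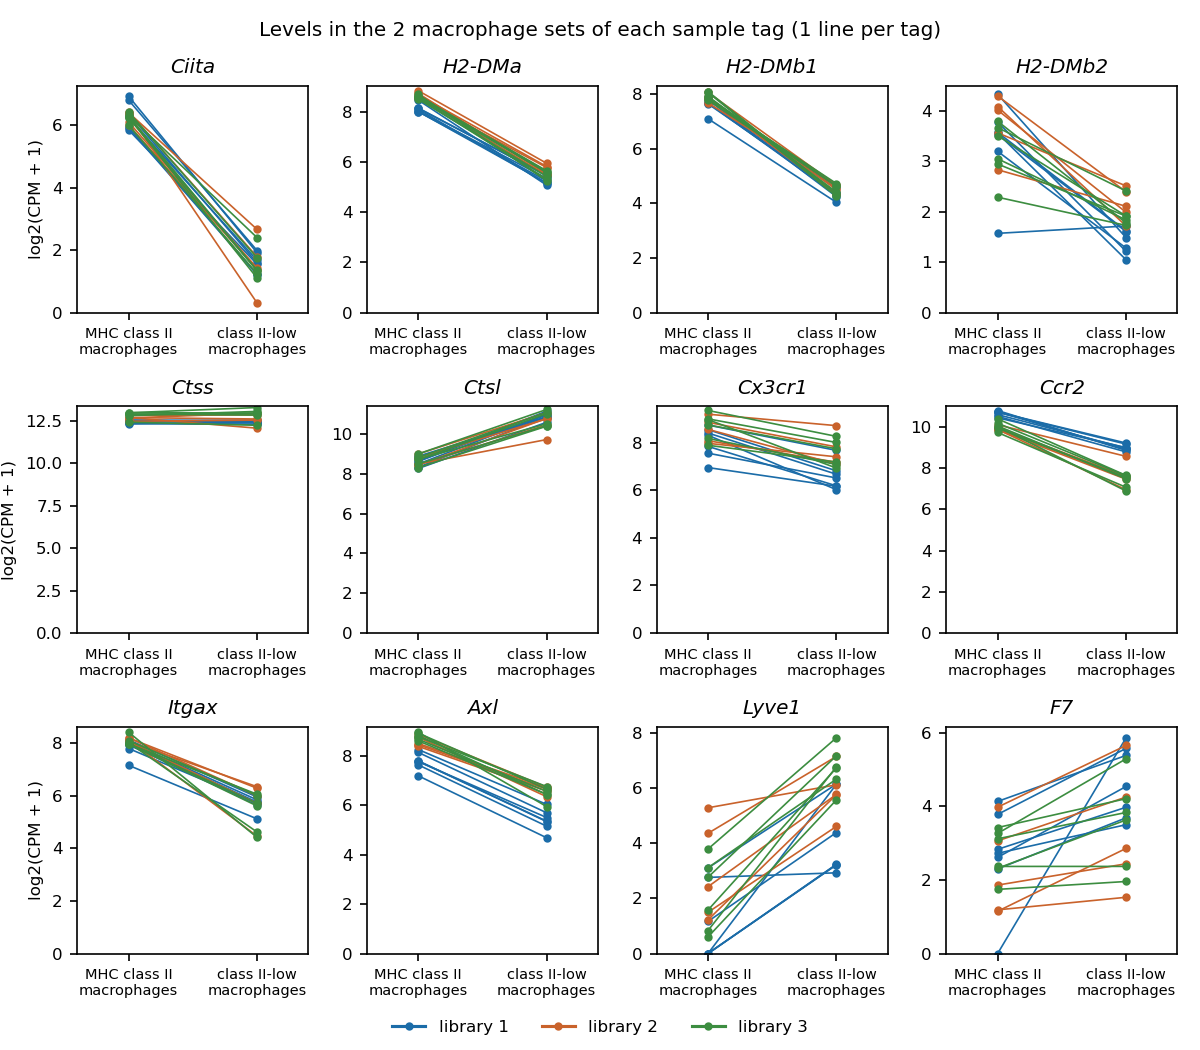
Levels of 12 genes as log2(CPM + 1) in MHC class II macrophages (left) and class II-low macrophages (right) of the same sample tag, 1 line per tag, coloured by library. The 18 lines fall from left to right for Ciita, H2-DMa and Ccr2, show no common slope for Ctss (6276 and 5990.2 CPM) and climb for Ctsl (397 and 1839 CPM).

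At full depth, Ccr2 and Cx3cr1 were found together in most members. Of 1964 members, 1336 (68.02%) held molecules of both, 350 (17.8%) Ccr2 without Cx3cr1, 183 (9.32%) Cx3cr1 without Ccr2 and 95 (4.84%) neither. Detection depended on depth: at 2000 molecules per cell 641 members held both, 750 Ccr2 alone, 202 Cx3cr1 alone and 340 neither. Read the other way, with every cell thinned to 2000 molecules, members were 43.1% (40.5 to 45.6) of the 1488 macrophage-limit cells with both and 25.3% (23.7 to 26.9) of 2968 with Ccr2 alone. Members were 15.7% (13.7 to 17.8) of 1287 cells with Cx3cr1 alone and 7.002% (6.30 to 7.76) of 4856 with neither. Libraries 1 and 3 kept this order. In library 2 the first shares were 45.4% (40.2 to 50.6) and 45.2% (40.5 to 50.01), each within the other's interval. Cells with Lyve1, Folr2 or Timd4, genes of long-lived resident macrophages, were members in 5.44% (4.53 to 6.46) of 2226 cells, against 21.6% (20.8 to 22.5) of 8373 cells without them. These intervals cover counting of cells, not differences between hearts.

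Genes of T cell contact split, and those of the class I pathway and of interferon responses were mostly higher. Cd86, a costimulatory ligand for CD28, stood at 202 CPM (134 to 323) in members and 84.7 CPM (60.6 to 138) in class II-low macrophages, higher in 18 of 18 tags (log2 1.22 ± 0.057, edgeR adjusted p = 6.4e-15). Cd83, which stabilises class II at the surface, rose by 1.08 ± 0.051. Vsig4, a complement receptor that restrains T cells, fell (log2 -4.69 ± 0.28, and -4.09 without library 3), as did the inhibitory receptor Cd200r1 (-1.48 ± 0.096). Over this list 8 of 19 genes were higher, 7 lower and 4 not called, median -0.052, where 26.6% of all genes were higher and 25.3% lower. In the class I pathway 13 of 18 genes rose and 1 fell (median 0.35), led by H2-Q7 (1.16 ± 0.085), whose close copies make its count uncertain, and the peptide transporter Tap1 (0.81 ± 0.081). The gene that fell was the class I heavy chain H2-D1 (-0.084 ± 0.03, adjusted p = 0.022; 0.061 without library 2 and 0.2 without library 3). Interferon-gamma response genes rose in 15 of 19 and fell in 1 (median 0.34), among them Gbp3 (0.62 ± 0.094) and Jak2 (0.61 ± 0.067) up. The gene that fell was the GTPase Irgm2 (-0.29 ± 0.11, adjusted p = 0.023; 0.15 without library 1 and 0.061 without library 3). Type I interferon response genes rose in 13 of 20 with 0 lower (median 0.39), led by Isg15 (0.71 ± 0.12).

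Resident and wound genes were mostly lower in members. Lyve1, the hyaluronan receptor of resident perivascular macrophages, stood at 1.91 CPM (0 to 38.3) in members and 61.5 CPM (6.63 to 228) in class II-low macrophages, lower within 18 of 18 tags although ranges overlapped between tags. Its log2 difference was -3.35 ± 0.29 (edgeR adjusted p = 6.0e-10), with -4.03 without library 2 and -2.62 without library 3. Of 16 genes of the resident list, 15 fell (median -1.76), and the lipid transfer protein Pltp rose (0.302 ± 0.059, adjusted p = 0.45 without the tag block). The arginase Arg1 stood at 144 CPM (22.3 to 952) in members and 945 CPM (156 to 4354) in class II-low macrophages (log2 -2.92 ± 0.198, edgeR adjusted p = 5.3e-12). The acute-phase protein Saa3 (-3.65 ± 0.33) and the antiprotease Slpi (-3.47 ± 0.23) fell too, and 13 of 20 wound and acute-phase genes were lower, 2 higher (the interleukin 1 antagonist Il1rn and the membrane protease Mmp14). Spp1, osteopontin, chosen after its values were seen, stood at 604 CPM (309.9 to 1457) in members and 4317 CPM (2359 to 10461) in class II-low macrophages, with no overlap (log2 -2.68 ± 0.15). Lipid-handling genes fell in 13 of 17 (median -0.57), with the fatty acid receptor Cd36 at -1.84 ± 0.14 and Gpnmb at -1.62 ± 0.21, while the fatty acid sensor Pparg (0.53 ± 0.09) and the cholesterol exporter Abcg1 (0.37 ± 0.068) rose. Glycolysis and hypoxia genes fell in 17 of 19 with 0 higher (median -0.43), led by Egln3 (-1.16 ± 0.15) and Bnip3 (-0.83 ± 0.081). Of 20 core macrophage genes 5 were higher, near the share of all genes (26.6%), and 9 lower, where 25.3% of all genes were lower. The lipid-sensing receptor Trem2 stood at -0.79 ± 0.069.

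Cytokines, chemokines and regulators moved both ways. Il1b, an inflammatory cytokine, stood at 1401 CPM (699 to 4143) in members and 481 CPM (259.97 to 1302) in class II-low macrophages, higher in 18 of 18 tags (log2 1.58 ± 0.13, edgeR adjusted p = 3.1e-10, and 2.11 in library 1 alone and 1.06 in library 3 alone). Il6 fell (-2.44 ± 0.25, and -3.201 without library 1), but at a C1q limit of 0.5% its value was -1.03 with an adjusted p of 0.095, and Lif, a cytokine of the same family, fell (-2.48 ± 0.23). Of 19 chemokines 12 fell, led by Ppbp (-2.87 ± 0.301, and -3.79 without library 1) and Ccl24 (-2.39 ± 0.29). The 6 that rose were led by Cxcl9, followed by Ccl5 (1.46 ± 0.25) and Cxcl16 (0.73 ± 0.064). Transcription regulators rose in 21 of 36, led by Irf4, followed by Batf3 (1.44 ± 0.14) and Runx3 (1.26 ± 0.042). They fell in 8, led by Tfec (-1.09 ± 0.12) and Bhlhe41 (-1.02 ± 0.15). In the TGF-beta list 9 of 16 rose and 3 fell, with the matrix protein Tgfbi (1.29 ± 0.06) and the repressor Skil (0.79 ± 0.037) up. Of the NADPH oxidase genes 4 of 7 were higher, led by the catalytic subunit Cybb (0.59 ± 0.036). Immediate early and stress genes, a list that can follow tissue digestion, rose in 14 of 20. The heat shock genes Hspa1a (1.27 ± 0.099) and Hspa1b (1.62 ± 0.12) led them and are close copies of uncertain split.

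Receptors for debris and complement were mostly lower in members, while those for chemokines were mostly higher. Of 17 scavenger and efferocytosis receptors 10 fell and 2 rose (median -0.52). Marco, a scavenger receptor for bacteria, stood at 0.829 CPM (0 to 6.48) in members and 22.2 CPM (0.333 to 96.1) in class II-low macrophages (log2 -4.18 ± 0.26, edgeR adjusted p = 1.1e-12). The secreted scavenger protein Cd5l (-3.04 ± 0.19), the lectin Fcna (-2.95 ± 0.24, and -3.54 without library 2) and the endothelin receptor Ednrb (-2.904 ± 0.16) were among the 10 largest decreases. Complement genes fell in 8 of 14 and rose in 2 (median -0.46). The complement inhibitor Cd59a (-1.58 ± 0.16) fell, and C3, the central complement protein, stood at 43.1 CPM (17.3 to 103) in members and 22.2 CPM (11.1 to 57.4) in class II-low macrophages, higher in 16 of 18 tags (log2 0.95 ± 0.15, edgeR adjusted p = 1.1e-05). Of 10 chemokine receptors 6 rose and 2 fell, the scavenging receptor Ackr3 most (-3.15 ± 0.26). Growth factors and cytokines fell in 13 of 23 and rose in 5, the last near the share of all genes (26.6%), with the mesenchymal growth factor Pdgfb (0.68 ± 0.063) up. Of a monocyte list 6 of 19 rose and 5 fell, near the shares of all genes (26.6% higher and 25.3% lower), with fibronectin (Fn1) at -1.24 ± 0.18 and the methionine sulfoxide reductase Msrb1 at -0.58 ± 0.046. Of 10 genes listed with the receptor-like Fcrls, 6 rose and 3 fell. Fcrls itself (-0.76 ± 0.103) and the prostaglandin D synthase Hpgds (-0.29 ± 0.089) fell, the last at -0.104 with an adjusted p of 0.47 without library 1.

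F7 was lower in members. The gene lies on chromosome 8 at 13026034 to 13035809 and had 170 molecules over all members and 4465 over class II-low macrophages. Its median was 5.36 CPM (0 to 16.5) in members and 13.96 CPM (1.88 to 57.1) in class II-low macrophages, lower within 18 of 18 tags, with ranges that overlapped between tags. The log2 difference was -1.48 ± 0.17 (edgeR adjusted p = 5.8e-08), with -1.78, -1.44 and -0.99 in libraries 1, 2 and 3 alone. A molecule was found in 4.68% of members and 18.2% of class II-low macrophages. At 2000 molecules per cell the shares were 0.776% (0.435 to 1.28) in members, 3.86% (3.45 to 4.32) in class II-low macrophages and 0.423% (0.0512 to 1.52) in cells with 2 or more CD3 molecules, whose median before thinning was 7439.5 molecules. The interval of members lay within the wide interval of the CD3 cells, so these counts cannot show whether members held F7 above this background. The intervals cover counting of cells, not differences between hearts. Members held more Cx3cr1, from whose locus Cre is driven in the CX3CR1Cre genotype, and no tag has a genotype here, so deletion and cell class cannot be told apart. Of 18 coagulation genes tested, 13 fell and 2 rose. Tissue factor (F3) stood at 0.319 CPM (0 to 9.67) in members and 9.95 CPM (2.42 to 65.9) in class II-low macrophages (log2 -3.44 ± 0.27, edgeR adjusted p = 9.1e-11). It had 37 molecules over all members, 19 of them in tag 6 of library 1, and 3348 over class II-low macrophages. F3 thus entered the test through class II-low macrophages, and the size of its difference is uncertain. The plasminogen activator inhibitor Serpinb2 differed by -2.89 ± 0.31 (-3.78 without library 1). The plasminogen activator Plau rose (0.72 ± 0.088), and its receptor Plaur rose by 0.396 ± 0.094, or 0.17 with an adjusted p of 0.27 without library 1.

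Markers of other cells moved with the comparison. The 18 dendritic cell markers summed to a median of 750.4 CPM (572 to 1387) in members, 284 CPM (233 to 565) in class II-low macrophages and 4191 CPM (3096 to 7243) in class II dendritic cells, with none at 0. Of 10 of them tested, 9 rose in members (Dpp4, Mgl2, Itgax, Kmo, Napsa, Batf3, Naaa, Clec10a and Wdfy4) and Cd24a fell, with a median log2 difference of 1.47 and Dpp4 at 3.85 ± 0.21. Genes too low to be tested were pooled over all tags: Zbtb46 stood at 2.16 CPM in members and 0.926 in class II-low macrophages, Clec9a at 1.87 in members and 0.365 in class II-low macrophages. Likewise Itgae stood at 0.697 CPM in members and 0.348 in class II-low macrophages, and Xcr1 at 0.623 in members and 0.135 in class II-low macrophages. Gaps were wider for Ccl17, at 7.11 CPM in members and 0.0449 in class II-low macrophages, and Ccl22, at 10.4 and 0.466 in the same order. Ccr7 stood at 7.77 CPM in members and 1.04 in class II-low macrophages, and Fscn1 at 3.85 and 2.16. Without cells that held a Zbtb46, Kmo, Clec9a, Xcr1 or Ccr7 molecule, the log2 difference was 5.17 for Ciita, 2.98 for H2-DMa, 2.29 for Itgax and 2.63 for Mgl2. The 10 B cell markers summed to 221 CPM (144 to 309) in members and 79.3 CPM (44.3 to 159.7) in class II-low macrophages. Of 4 tested, 3 rose (Ighm, Cd79b and Bank1) and Cd22 fell (median 0.84), Cd22 with an adjusted p of 0.13 without library 1. Ighm, the IgM heavy chain, rose by 2.14 ± 0.13. Pooled over all tags, Ighm stood at 168 CPM in members and 32.7 in class II-low macrophages. The B cell receptor chain Cd79b stood at 11.5 CPM in members and 5.06 in class II-low macrophages, and the B cell factor Pax5 at 0.623 CPM in members and 0.387 in class II-low macrophages. The 9 monocyte markers overlapped, 462 CPM (149 to 2185) in members and 463 CPM (303 to 986) in class II-low macrophages, with Plac8 (1.76 ± 0.15) and Ly6c2 (1.71 ± 0.12) higher and Mgst1 (-2.21 ± 0.089) lower. The 12 cavity macrophage markers summed to 41.1 CPM (26.6 to 97.01) in members and 358 CPM (66.5 to 1511) in class II-low macrophages, and among them Prg4 had the largest decrease of those named for size (-5.49 ± 0.14). Neutrophil markers summed to 152 CPM (92.3 to 454) in members and 255 CPM (116 to 757) in class II-low macrophages. T and NK cell markers summed to 225 CPM (106 to 368) in members and 209.8 CPM (92.8 to 287) in class II-low macrophages, endothelial markers to 50.97 CPM (26.8 to 97.01) in members and 70.1 CPM (18.6 to 243) in class II-low macrophages, cardiomyocyte markers to 12.8 CPM (1.97 to 34.6) in members and 8.798 CPM (5.05 to 16.8) in class II-low macrophages, and fibroblast markers to 191 CPM (44.2 to 1508) in members and 220.2 CPM (45.2 to 1608) in class II-low macrophages. The part of other cells, and of immunoglobulin transcripts from them, was not tested beyond these values.

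Levels moved in steps along classes of class II share, given here over all libraries with no test. From the lowest class (0 to 0.1%, 6794 cells) through 0.1 to 0.3, 0.3 to 1, 1 to 2 and 2 to 4% to 4% and more (693 cells), Ciita held 1.45, 7.196, 18.1, 41.6, 82.8 and 133 CPM. Axl held 52.4, 125, 160.1, 228, 323 and 502 CPM over the same classes. Both climbed at each step in each library. Ctsl fell at each step in each library, through 1950.4, 1196, 884, 551, 363 and 217 CPM over all. Cx3cr1 held 137, 221, 226, 309, 378 and 409.99 CPM, but in libraries 1 and 2 its highest class was 2 to 4% (338 and 439 CPM). Spp1 held 6361, 3433, 2216, 1338, 589.7 and 185 CPM, with 1 step up, in library 3. F7 held 25.9, 17.3, 11.5, 10.7, 5.15 and 1.49 CPM, with 1 step up, in library 2 between 0.3 to 1% (4.81 CPM) and 1 to 2% (9.73 CPM). With libraries pooled, Ctss stayed between 6069.9 and 6567 CPM. Its level differed between libraries, with member medians of 5648, 6637 and 7646 CPM in libraries 1, 2 and 3. The pooled range therefore does not describe single libraries. Plac8 was highest at 2 to 4% within each library (437, 86.01 and 62.1 CPM).

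**Figure D4:**
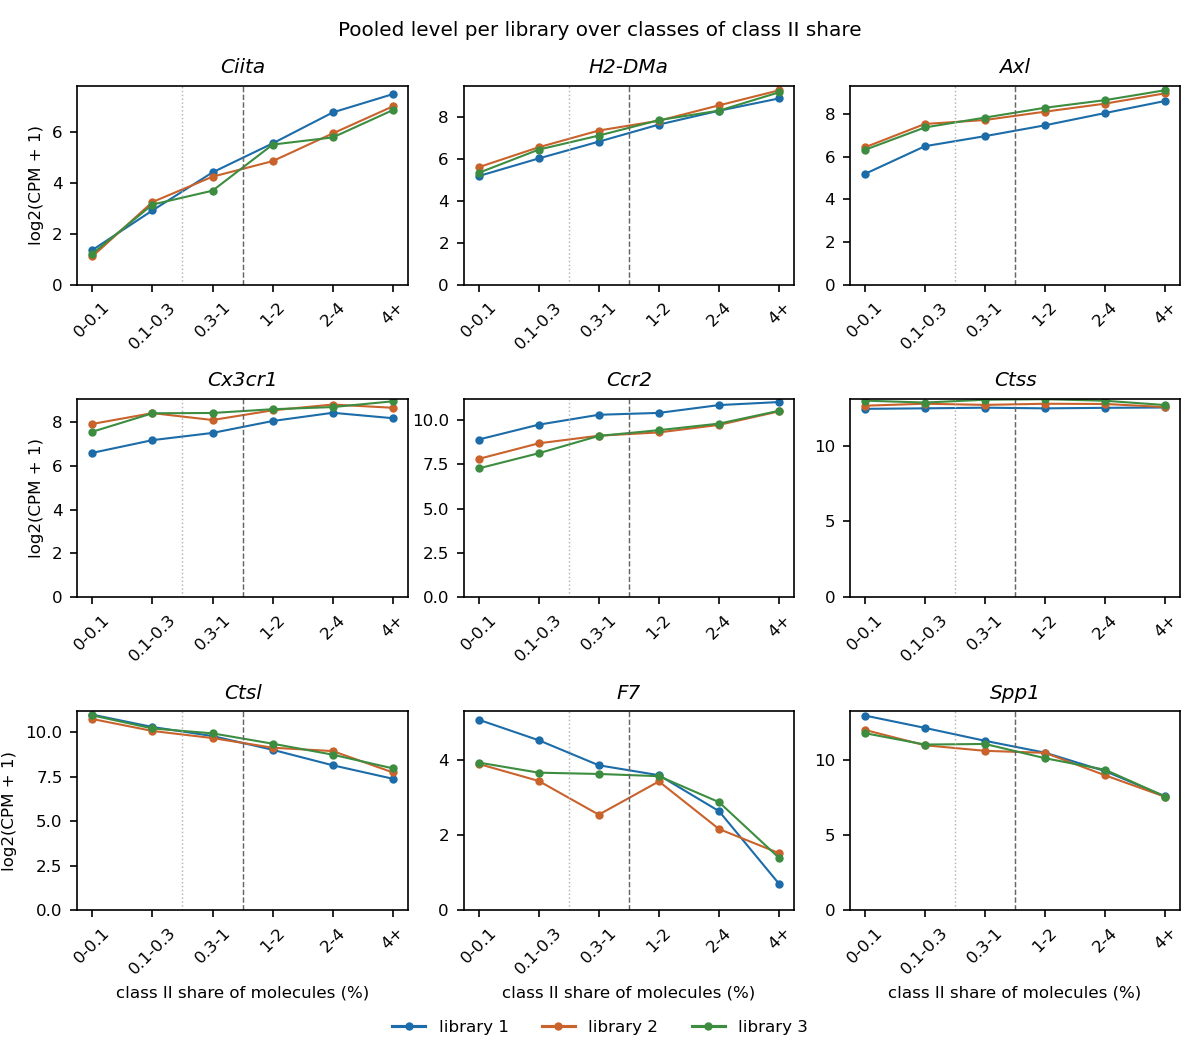
Pooled level of 9 genes as log2(CPM + 1) over 6 classes of class II share among cells at the macrophage limits, 1 line per library; the dotted line marks 0.3% and the dashed line 1%, from which cells were members. Ciita climbs through every class in each library. The Ctss range of 6069.9 to 6567 CPM holds for pooled libraries, which are not drawn, and not for the single lines.

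Class II dendritic cells, the classical presenters to T cells, were compared with members of the same tag (15 tags with 20 or more cells of each, 1615 members and 1038 dendritic cells). Members held more macrophage genes and less of the peptide-loading set. Of 8385 genes tested, 54.7% were called, 2252 higher in members (26.9%) and 2333 lower (27.8%) by edgeR's test at an adjusted p under 0.05. The sets were split on C1q, Flt3 and Cd209a, so their macrophage and dendritic genes are no independent finding. All 20 tissue macrophage core genes were higher in members (median log2 2.78), with Ms4a7, a membrane protein of macrophages, at 1589 CPM (852 to 2187) in members and 51.8 CPM (15.4 to 214) in dendritic cells (log2 4.36 ± 0.18). All 17 dendritic cell markers tested were lower (median -3.53). Fcrls (4.17 ± 0.17), Tmem119 (4.29 ± 0.27), Olfml3 (4.18 ± 0.19) and Ccl12 (4.31 ± 0.24, and 5.06 without library 1) joined Ms4a7 as the 5 largest increases. The 5 largest decreases were Sept3 (-8.24 ± 0.17, and -7.61 without library 1), Mreg (-6.94 ± 0.22), Cd7 (-6.46 ± 0.29, -5.37 without library 1 and -7.599 without library 3), Sema7a (-6.45 ± 0.22) and the integrin Itgae (-6.31 ± 0.25).

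Within the class II pathway the largest differences from dendritic cells were in the inhibitor chains and H2-DMb2. Over all 18 tags members held only 76 molecules of H2-Oa and 180 of H2-Ob. Both inhibitor chains, too low to be tested against class II-low macrophages, entered this test through the dendritic cells. Their lower values in members are therefore no independent finding, and their sizes are uncertain. H2-Oa stood at 3.11 CPM (0 to 6.09) in members and 99.5 CPM (37.8 to 172) in dendritic cells (log2 -5.24 ± 0.22, edgeR adjusted p = 2.6e-16). H2-Ob stood at 6.23 CPM (0 to 16.7) in members and 151 CPM (97.8 to 273) in dendritic cells (log2 -4.68 ± 0.15, edgeR adjusted p = 3.4e-18). H2-DMb2 stood at 10.8 CPM (1.97 to 19.1) in members and 266 CPM (182 to 495) in dendritic cells (log2 -4.65 ± 0.15, edgeR adjusted p = 2.0e-18). Ranges overlapped for none of these 3 genes. H2-DMb1 differed by -0.92 ± 0.075 and H2-DMa by -0.75 ± 0.055. The rule gene H2-Ab1 was lower in members as well, at 8869.7 CPM (4527 to 10011, 18 tags). In dendritic cells it stood at 15193 CPM (10334 to 20495, 15 tags). Whether the H2-DM genes were lower relative to the class II chains was not tested. Ciita stood at 74.99 CPM (56.5 to 120.5) in members and 233 CPM (79.7 to 361) in dendritic cells, lower in 14 of 15 tags (log2 -1.62 ± 0.13, edgeR adjusted p = 4.4e-11). The proteases ran the other way: Ctsb (2.599 ± 0.102), Lgmn (2.19 ± 0.068), Ctsl (2.05 ± 0.11), Ctss (0.95 ± 0.074) and Ctsh (0.38 ± 0.057) were higher in members, and so was March8 (2.71 ± 0.28). Over the list, 6 of 19 genes were higher and 11 lower, among them Rfx5 (-1.09 ± 0.201) and Rfxap (-0.51 ± 0.14), which had adjusted p of 0.066 and 0.15 without library 1. Cx3cr1 stood at 339 CPM (123 to 655) in members and 50.4 CPM (23.1 to 109) in dendritic cells (log2 2.43 ± 0.12). Among other lists, the cytokine Il10 (3.62 ± 0.27) was higher in members. So were 12 of 14 scavenger and efferocytosis receptors, led by Stab1 (3.08 ± 0.12), and 8 of 10 complement genes, led by the anaphylatoxin receptor C3ar1 (3.39 ± 0.14). The chemerin receptor Cmklr1 (3.002 ± 0.19) was higher and Il1b (-0.497 ± 0.12) lower, the last with an adjusted p of 0.077 without the tag block. Ccr7, the receptor for migration to lymph nodes (-5.86 ± 0.28), the chemokine Ccl22 (-5.03 ± 0.502), the T cell ligand Tnfsf4 (-5.98 ± 0.26) and Tap1 (-1.26 ± 0.093) were lower.

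Members with and without a Ccr2 molecule were compared within tags of libraries 2 and 3. In library 1 no tag held 20 members without one, since 96.2% of its members had a Ccr2 molecule, with 77.8% in library 2 and 81.8% in library 3. The 8 tags gave 756 Ccr2-positive and 210 Ccr2-negative members. Of 5812 genes tested, 2.01% were called, 44 higher (0.757%) and 73 lower (1.26%) in Ccr2-positive members by edgeR's test at an adjusted p under 0.05. Ccr2-positive members were deeper, with a median of 12806 molecules per cell over all libraries, against 9690.5 in Ccr2-negative members. At 2000 molecules per cell 11 genes were higher and 24 lower of 1639 tested.

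Ccr2-positive members held less of several resident genes. Gas6, a bridging ligand of Axl and Mertk, stood at 41.9 CPM (33.5 to 62.7) in Ccr2-positive and 123 CPM (80.3 to 215) in Ccr2-negative members, lower in 8 of 8 tags (log2 -1.54 ± 0.15, edgeR adjusted p = 1.3e-05). The growth factor Igf1 stood at 194 CPM (98.2 to 289) in Ccr2-positive and 430.3 CPM (303 to 471) in Ccr2-negative members (log2 -1.16 ± 0.14, edgeR adjusted p = 0.00012). Selenop, a selenium carrier, stood at 2893 CPM (2060.3 to 3832) in Ccr2-positive and 5231 CPM (3671 to 6412) in Ccr2-negative members (log2 -0.83 ± 0.095, edgeR adjusted p = 5.9e-05). Ranges did not overlap for Gas6 and Igf1. Cytip, an adhesion regulator, stood at 259 CPM (214 to 479) in Ccr2-positive members, against 122 CPM (105 to 182) in Ccr2-negative members, also with no overlap (log2 1.03 ± 0.11, edgeR adjusted p = 5.0e-05). These 4 of 26 named genes called passed in each library alone, and all 26 kept their direction in both. Over the resident list 7 of 11 genes tested were lower in Ccr2-positive members and 0 higher (median -0.94). Other calls were lost without 1 library. Fcrls (-0.85 ± 0.15), Plac8 (2.49 ± 0.42) and Runx3 (1.05 ± 0.16) did not pass without library 2, with adjusted p of 0.18, 0.31 and 0.099. Fcrls then stood at -0.74, Runx3 at 0.898 and Plac8 at 1.47, the last at 3.09 without library 3. Il1b (0.86 ± 0.17), the lipid carrier Apoe (-0.56 ± 0.096) and the chemokine receptor Ccr1 (0.99 ± 0.19) did not pass without library 3, with adjusted p of 0.43, 0.11 and 0.51. Il1b then stood at 0.47, Apoe at -0.63 and Ccr1 at 0.54, the last at 1.604 without library 2.

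Axl (0.498 ± 0.093) and the integrin Itgam (0.43 ± 0.092) were higher and Cd36 (-0.76 ± 0.15) lower in Ccr2-positive members, with adjusted p of 0.17, 0.15 and 0.21 without library 2 and 0.19, 0.48 and 0.11 without library 3. Of 13 class II machinery genes tested between these members, 1 was higher and 2 lower, where 2.01% of all genes were called. Over all libraries the median class II share was 3.14% in Ccr2-positive and 2.28% in Ccr2-negative members. The median C1q share was 0.658% in Ccr2-positive and 0.951% in Ccr2-negative members. The part of these shares in the differences was not tested. H2-DMb1 stood at 245 CPM (221 to 291) in Ccr2-positive and 169 CPM (103 to 218) in Ccr2-negative members (log2 0.58 ± 0.14, edgeR adjusted p = 0.029; 0.28 without library 2 and 0.22 without library 3). With cells thinned to 2000 molecules its value was 0.27, with an adjusted p of 0.59. Thinning likewise gave adjusted p of 0.055 for Fcrls and 0.088 for Itgam. Ctsl (-0.62 ± 0.11) and Ctsb (-0.52 ± 0.11) were lower, Ctsl with adjusted p of 0.13 and 0.12 without libraries 2 and 3 and Ctsb with 0.51 without library 3. Ciita differed by 0.68 ± 0.19 (edgeR adjusted p = 0.069; 0.0055 with no filter on low counts) and H2-DMa by 0.43 ± 0.12 (adjusted p = 0.073; 0.00073 with no filter), positive in 8 and 7 of 8 tags. Cx3cr1 stood at 320.1 CPM (234 to 692) in Ccr2-positive and 419 CPM (227 to 515) in Ccr2-negative members, a difference within its error (log2 -0.01 ± 0.13, edgeR adjusted p = 0.99). F7 was too low to be tested here, at 2.84 CPM (0.787 to 20.7) in Ccr2-positive and 3.23 CPM (0 to 41.8) in Ccr2-negative members.

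**Figure D5:**
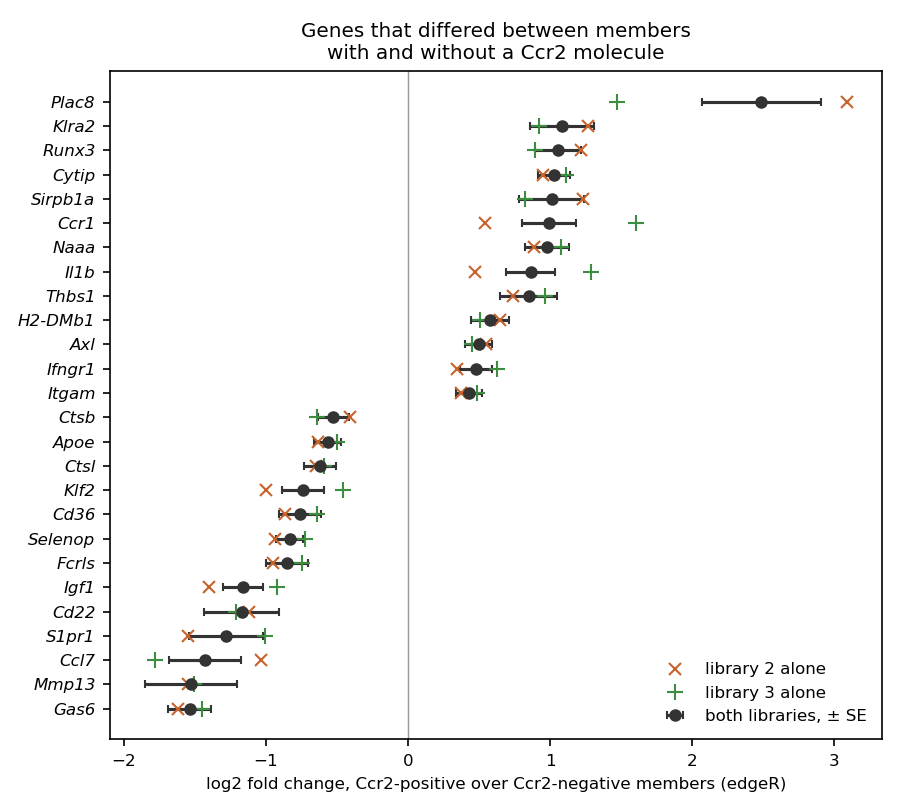
Log2 fold change, Ccr2-positive over Ccr2-negative MHC class II macrophages, for the 26 named genes with an adjusted p under 0.05 in 8 tags; black points with bars are the joint fit with its SE, crosses library 2 alone and plus signs library 3 alone. All 26 lie on the same side of 0 in both libraries, from Gas6 at -1.54 to Plac8 at 2.49.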

How the data were processed

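The authors deposited a table of molecule counts for each sample tag, corrected by recursive substitution (RSEC) in the BD Rhapsody pipeline, per the file headers. Library 1 used pipeline version 2.0b1 and enhanced beads with intronic reads kept, and libraries 2 and 3 version 1.10 and original beads. The reference named there was GENCODE M19, and the submitters' processing notes name GRCm38. Columns of per-sample values left unused numbered 0. Per the labels' protocols a tag identifies a biological replicate, so p-values measure the spread between tags of the difference between cell sets.

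Cells with under 200 genes (122) were left out, counts were summed per tag and cell set with at least 20 cells, and the genes of the rules (with Ccr2 in the split by Ccr2) were left out of fits and library sizes. Sums were tested with edgeR 4.0.16 in R 4.3.3 (quasi-likelihood test, TMM, filterByExpr, the tag as a block, Benjamini-Hochberg adjustment, threshold 0.05), after the same script was tested on simulated data. Alternatives were DESeq2 1.42.0, other filters, limits and cell sets, single libraries, and thinning to 2000 molecules. Scrublet in scanpy 1.11.5 (expected rate 6%) called 0, 1 and 0 doublets, so its threshold did not work. No doublet was removed, and an alternative dropped the top 2% of scores in each library. Median scores were 0.0522 in members, 0.0570 in class II-low macrophages and 0.0388 in dendritic cells.

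Members and lists were chosen with earlier results of these data known. Genes were named by rule: the rule genes, Cx3cr1, F7 and the machinery list, from each other list the 2 largest called differences each way (1 in the later comparisons) at 10 CPM or more with 1 direction in at least 80% of tags, and the 10 (later 5) largest each way at 50 CPM or more. Positions came from GENCODE M21. Gene length was not used, so levels are compared within a gene only.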

Additional observations from a re-analysis of the deposited data

Results flagged for a closer look

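Within each library, tag values of members were searched for a tag far from the others by Dixon's test. Of 54 sets of tag values 10 stood apart, where chance alone gives about 1 in 20. The share of members was 20.2% in tag 5 of library 2, above 12.4% in the next tag. Tag 10 of library 1, which rests on 27 members, was highest of its library in H2-DMa (357 CPM, next 287) and Arg1 (952 CPM, next 383) and lowest in H2-DMb1 (136 CPM, next 199) and Itgax (142 CPM, next 222). Tag 7 of library 3 was highest in Itgax (341 CPM, next 273) and lowest in Ctss (5503 CPM, next 7179). F3 was highest in tag 6 of library 1 (9.67 CPM, next 3.94) and in tag 8 of library 3 (3.24 CPM, next 0.959). These F3 values rest on 19 and 5 molecules, and those of the next tags on 2 and 1. Spp1 was highest in tag 12 of library 3 (947 CPM, next 609).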

How the results depend on the processing

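No paired analysis by replicate number was possible because the labels put all 3 libraries in 1 group. Instead the sample tag was the block in each fit. Against class II-low macrophages, members had 965 higher and 867 lower genes in library 2 alone, 1390 and 1270 in library 3 alone, 1072 and 953 after thinning, and 1869 to 2350 and 1891 to 2256 without 1 library. With no filter on low counts 34.4% of calls were higher in members, against 51.3% as reported. Against dendritic cells they had 1058 and 1015 in library 2 alone, 1091 and 974 in library 3 alone, 814 and 809 after thinning, and 1577 to 2146 and 1542 to 2115 without 1 library. For Ccr2-positive against Ccr2-negative members, the counts were 229 higher and 96 lower with no filter (70.5% higher, against 37.6% as reported), 26 and 33 without the tag block, 3 and 10 in library 2, 27 and 18 in library 3, and 11 and 24 after thinning. Smaller counts in 1 library or after thinning come with fewer tags or molecules by construction, and the cause of the others was not tested. In that comparison at least 50 cells per set gave no value, and library 1 entered no fit. The median share of members was 6.93% at a class II limit of 2% and 7.07 to 12.4% without 1 library. Among named genes 2 reversed, neither past the threshold: Hpgds against class II-low macrophages in library 2 alone (log2 0.012, -0.29 as reported) and Cd4 against dendritic cells in library 3 alone (-0.21, 1.003 as reported). Over all alternatives, 64 values of named genes in the first comparison, 30 in the next and 84 in the last no longer passed. In the last, leaving out library 2 or 3 is the same fit as the other library alone. Losses in those fits are thus counted again, and 84 cannot be set against the other counts.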
